A study of Mus musculus with 12 samples.

Results

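The fat of mice that were eating a high-fat diet when they were killed was set against the fat of mice that were eating a control diet at that time. The high-fat side consisted of the 3 pools of the group WL, and the control-diet side of the 9 pools of the groups CD, UT and UL, so that all 12 pools of the series entered. Membership followed the diet at termination, and CD, UT and UL counted equally, as the mean of their 3 group means. All mice were male C57BL/6J wild-type animals whose epididymal fat pads were taken at 23 weeks, and in each group 3 pooled samples came from 12 mice. The high-fat diet (D12451) gave 45% of its energy as fat and the matching control diet (D12450H) gave 10%. The WL group met the high-fat diet from mating to termination. UT met it in utero through the dams and UL from mating to weaning, and the labels imply, without spelling it out, that both then ate the control diet. CD had the control diet throughout. The parents of all groups ate a standard breeding diet before mating. WL therefore shared early high-fat exposure with UL and, in part, with UT, and differed from CD in early as well as current diet. The assignment of litters to pools is not stated in the labels, so the p-values measure the spread between pools and could be too small if pools shared litters.

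MicroRNAs are short RNAs that guide a silencing complex to messenger RNAs, mainly by pairing of the seed, bases 2 to 8 from the 5′ end. Each precursor hairpin gives 2 arms, 5p and 3p, of which usually 1 is kept as the guide and the other is scarce. Epididymal fat is a visceral depot of male mice that enlarges and takes up macrophages on a high-fat diet, and its microRNAs come from fat cells, vessels, stroma and immune cells together. In bulk tissue, a change in the number of cells of a type and a change in RNA per cell cannot be told apart.

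The sequences below are of microRNAs described in the results, as RefSeq gives them for GRCm38.p6, with the seed in capitals. The first 2 are the microRNAs that passed the test, and the next 6 are those whose 3 WL pools all lay outside the 9 others.
miR-135b-3p: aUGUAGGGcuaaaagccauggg
miR-291b-5p: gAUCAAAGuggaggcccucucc
miR-484: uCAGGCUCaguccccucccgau
miR-804: uGUGAGUUguuccucaccugga
miR-219a-5p: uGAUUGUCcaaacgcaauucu
let-7a-5p: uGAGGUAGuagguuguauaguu
miR-702-3p: uGCCCACCcuuuaccccgcucc
let-7g-3p: aCUGUACAggccacugccuugc
No 2 of these 8 share a seed. The next set is shown because seed sharing enters the results. miR-98-5p carries the let-7 seed, miR-93-5p carries that of miR-20b-5p, miR-92a-3p carries that of miR-32-5p, and the 5p arms of miR-365-1 and miR-365-2 carry the same seed but lay on opposite sides of 0 in WL.
miR-98-5p: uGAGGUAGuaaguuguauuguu
miR-20b-5p: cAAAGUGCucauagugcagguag
miR-93-5p: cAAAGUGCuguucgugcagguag
miR-32-5p: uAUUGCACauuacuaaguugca
miR-92a-3p: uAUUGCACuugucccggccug
miR-365-1-5p: aGGGACUUuugggggcagaugug
miR-365-2-5p: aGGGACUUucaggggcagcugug

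By RefSeq coordinates, the miR-484 hairpin lies at chr16:14159626-14159692 on the plus strand, outside the span of other listed genes. The miR-135b hairpin (chr1:132198088-132198184, plus strand) lies within the span of Lemd1 and of the long non-coding RNA Gm29695. The miR-291b hairpin (chr7:3219482-3219560, plus strand) belongs to the embryonic stem cell cluster of miR-290 to miR-295 and lies within the spans of Nlrp12 and the long non-coding RNA D7Ertd143e. The miR-702 hairpin (chr5:136991433-136991541, plus strand) lies within Plod3, the miR-804 hairpin (chr11:50357785-50357879, minus strand) within Cby3, and the let-7g hairpin (chr9:106178840-106178927, plus strand) within Wdr82. Exon and intron positions are not in the tables used here. RefSeq lists miR-219a-5p at 2 loci, on chromosomes 2 and 17, which an assay of the mature RNA does not separate.

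MicroRNAs were measured by quantitative RT-PCR as threshold cycles (Ct), where an earlier cycle stands for more template. The relative level used below subtracts a microRNA's Ct from the average Ct of the same pool, taken over the 466 microRNAs with a value in every pool, and is in cycles on the log2 scale. Assays can amplify unequally, so levels of different microRNAs are compared only roughly, where some are called abundant, scarce or late. The pools had values for 490 to 504 of 504 microRNAs, and 495 to 503 in WL. WL 3 and UT 2 stood apart on the leading principal component (25.9% of the variance). They scored 21.5 and 16.2, where the other 10 pools scored between -7.67 and 2.75. Their SDs about their own group means were 0.97 and 0.85 cycles, the largest of the 12 pools, followed by WL 2 (0.80) and UT 3 (0.78). On the second component (21.1%), UT 3 had the lowest score, -16.7. WL 3 was the highest of all 12 pools in 61 and the lowest in 97 of 466 microRNAs, whereas WL 1 and WL 2 were at an extreme in 54 and 85. Several fold changes are therefore given with and without WL 3. The reference RNA RNU-43 had a mean relative level of 7.47 ± 0.29 in WL, 7.48 ± 0.31 in CD, 6.74 ± 0.32 in UT and 7.12 ± 0.33 in UL (SD, n = 3 each). WL was higher by 0.35 than the mean of the other 3 groups, and scaling to RNU-43 lowers the fold changes of microRNAs measured in every pool by that amount. The other reference RNA, U6-snRNA, had the opposite sign, with a difference of -0.26 between WL and the mean of the other groups. It had no value in WL 3 and UT 1, was at 9.74 and 8.87 in WL 1 and WL 2, and was not used as a scale.

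Over 504 microRNAs, 2 passed an adjusted p of 0.05 in WL against the mean of CD, UT and UL (limma with Benjamini-Hochberg adjustment), which is 0.397% of those tested. Both were higher in WL (0.397%) and none was lower (0%). At an unadjusted p under 0.05 there were 49 (9.72%), of which 27 were higher in WL (5.36%) and 22 lower (4.37%). The median log2 fold change was -0.08, with quartiles at -0.37 and 0.30, the median SE was 0.36, and 55 microRNAs differed by over 1 in either direction. Of all 504, 219 (43.5%) had a fold change above 0, against 110 when RNU-43 set the scale and 277 without WL 3. In 6 of the 466 microRNAs measured in every pool (1.29%), all 3 WL pools lay outside the range of the 9 others, 4 of them above (0.858%) and 2 below (0.429%). For any microRNA, 2 of the 220 ways to split 12 pools into 3 and 9 place the 3 wholly above or wholly below. Some are thus expected without a group difference, and an excess over that was not tested. Without WL 3, 4 microRNAs passed the adjusted threshold, and both remaining WL pools lay outside the others in 28 of 475. Calls were also made between the 3 control-diet groups, but they depended on the setting. The limma F test across CD, UT and UL called 6 microRNAs (1.19%), and both microRNAs called in WL were among the 6. It reached an unadjusted p under 0.05 in 37 (7.34%). With 2 pairs of assays exchanged in 4 pools it called 3, and miR-363-5p, miR-676-3p and miR-758-5p were lost. Among microRNAs measured in all 12 pools it called 0. In miR-676-3p, WL 3 was at 1.04, and WL 1 and WL 2 were at -2.17 and -2.38. In miR-758-5p, WL 3 was at -4.48, and WL 1 and WL 2 were at 0.10 and -0.14. Both WL 3 values lay within the range of the other pools.

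The 2 microRNAs called in WL were incompletely measured, and in both 1 CD pool lay farther from WL than the rest. In each, that pool was the only CD pool with a value, and its value came later than Ct 35. With values past Ct 35 left out, neither could be tested and 0 microRNAs were called. miR-291b-5p had relative levels of -2.34, -2.85 and -3.51 in the WL pools. The control-diet pools with a value were CD 1 at -11.12, UT 3 at -3.28, and UL at -3.01, -2.78 and -2.66. The WL values overlapped UL and UT 3, and CD 1 stood apart by nearly 8 cycles. Its log2 fold change was 2.84 (SE 0.37, limma adjusted p = 0.0219), resting on 1 CD and 1 UT pool. The difference was 8.22 against CD, 0.38 against UT and -0.09 against UL. Against the mean of UT and UL alone it was 0.15 (SE 0.39, limma adjusted p = 0.886).

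For miR-135b-3p, the scarcer arm of a hairpin whose 5p arm is known to target the Wnt pathway gene APC in human cells, the WL pools had -6.37, -7.45 and -6.37. The only CD value was -11.80 in CD 3. UT had -7.48, -7.63 and -7.66 and UL had -7.30, -7.49 and -7.90. WL 1 and WL 3 lay above all 7 control-diet values, and WL 2 lay within them. Its fold change was 2.25 on the log2 scale (SE 0.32, limma adjusted p = 0.0219), made up of 5.07 against CD, 0.86 against UT and 0.83 against UL. Against UT and UL alone it was 0.84 (SE 0.32, limma adjusted p = 0.373). Restricting the test to microRNAs measured in all 12 pools removed both and left 0 calls, with 45 at an unadjusted p under 0.05. The call of both was also lost when missing values were set to a Ct of 40.

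Of the 6 microRNAs whose WL pools did not overlap the others, none passed the adjusted threshold. miR-484, a microRNA studied for its part in mitochondrial fission, had 3.13, 2.87 and 3.31 in WL. The 9 control-diet pools ranged from 1.63 to 2.77 with a median of 2.25. The lowest WL pool lay 0.10 above the highest of the others, UL 1. CD was the lowest group, at 1.63, 1.87 and 1.79. On the log2 scale WL exceeded the mean of the others by 0.90 (SE 0.23, limma adjusted p = 0.279), with 1.34 against CD, 0.71 against UT and 0.66 against UL. Its value lay between 0.55 and 1.03 over the 32 other settings tried.

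miR-804 had 0.82, 0.82 and 0.81 in WL. The other pools ran from -0.34 to 0.59 with a median of 0.35. The gap was 0.22 cycles and the log2 fold change 0.57 (SE 0.24, limma adjusted p = 0.456). let-7a-5p, a member of the let-7 family that restrains insulin and IGF signalling, was among the more abundant microRNAs, with 7.83, 7.83 and 7.89 in WL. The others spanned 7.23 to 7.80 around a median of 7.51, so that UL 1 came within 0.02 cycles of the lowest WL pool. Its log2 fold change was 0.28 (SE 0.21, limma adjusted p = 0.598), and turned to -0.07 with RNU-43 as the scale and to -0.01 after subtracting neighbouring assays in accession order.

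miR-219a-5p, known for its role in oligodendrocyte differentiation, had -3.86, -4.17 and -0.05 in WL, against a lowest, median and highest of -6.69, -4.87 and -4.24 in the 9 others. WL 3 was nearly 4 cycles above WL 1 and WL 2, which cleared UL 1 by as little as 0.07. With all pools the difference was 2.42 (SE 0.78, limma adjusted p = 0.337), and it became 1.10 without WL 3 (SE 0.54, limma adjusted p = 0.564).

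Both microRNAs that lay wholly below were also uncalled. miR-702-3p had 2.23, -0.12 and 1.92 in WL, while the 9 others ran from 2.29 to 3.80 with a median of 2.91. WL 2 was far below the other 2 WL pools, and WL 1 missed the lowest control-diet pool, UL 1, by 0.07. WL differed by -1.69 on the log2 scale (SE 0.48, limma adjusted p = 0.33), and by -0.96 without WL 2. let-7g-3p, the scarcer arm of a let-7 hairpin, had 0.45, 0.35 and -0.36 in WL, against 0.50 to 1.36 with a median of 0.89 in the others. Its log2 fold change was -0.71 (SE 0.26, limma adjusted p = 0.367) and -0.46 without WL 3, whereas the guide arm let-7g-5p had 0.26.

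**Figure D1:**
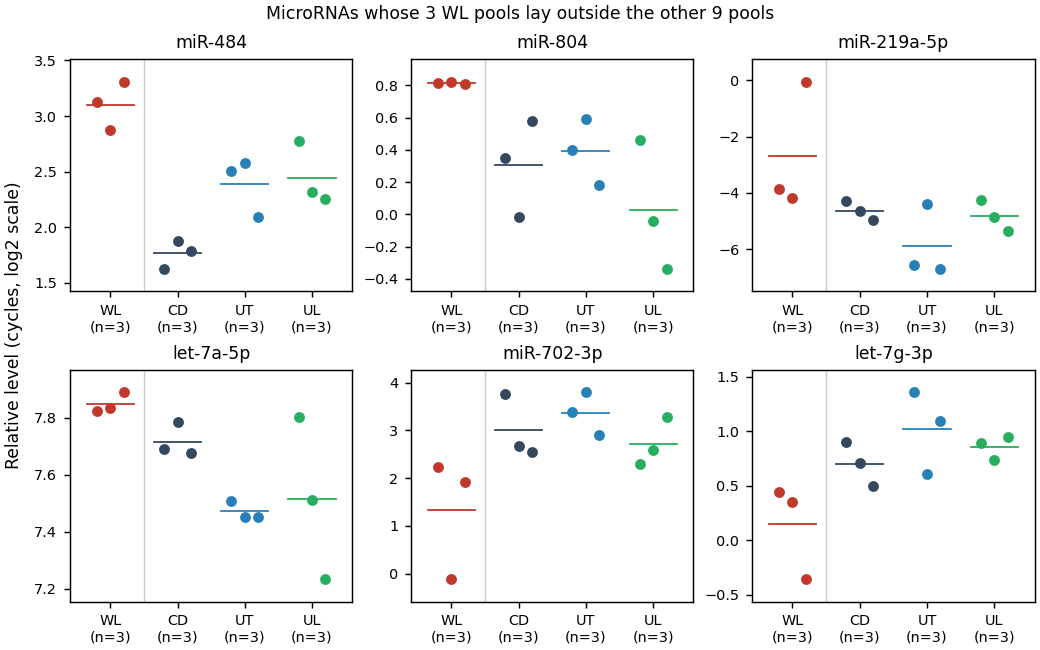
Relative level in cycles (log2 scale, y axes that differ between panels) of the 6 microRNAs whose 3 WL pools lay outside the 9 control-diet pools, by group (x axis, 3 pools each). Points are pools and lines are group means. miR-804 has the widest gap, 0.22 cycles, and in miR-219a-5p WL 3 lies far above the other WL pools.

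Among the 24 microRNAs with the smallest p, 15 were higher and 9 lower in WL, and 22 had the same sign against CD, UT and UL taken singly. The exceptions were miR-291b-5p and miR-20b-5p, whose differences from UL were -0.09 and -0.05. The 22 that missed the threshold had limma adjusted p-values of 0.279 to 0.361. miR-378-3p, from an intron of the gene for the mitochondrial coactivator Ppargc1b, had 1.30, 0.85 and 1.14 in WL. The 9 others ranged from -0.57 to 0.94 with a median of -0.11. UL 1, at 0.94, was the only control-diet pool inside the WL range, and CD was again lowest, at -0.23, -0.57 and -0.35. WL minus the others was 1.00 (SE 0.29, limma adjusted p = 0.33). The other arm, miR-378-5p, had 1.40, 1.22 and 2.08 in WL against a median of 1.51 in the others, with a log2 fold change of 0.10 (SE 0.33).

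miR-483, from an intron of the growth factor gene Igf2, had 1.35, 1.38 and 1.89 in WL, against 0.23 to 1.57 with a median of 0.49 in the others. All but UL 1, at 1.57, were at or below 0.86, so that 1 pool alone overlapped WL. WL exceeded the others by 0.91 (SE 0.27, limma adjusted p = 0.33). miR-339-5p was lower in WL, at 2.21, 1.94 and 2.66, where the 9 others had 2.65 to 3.79 with a median of 3.13. WL 3 and UL 1 were level, and the log2 fold change was -0.89 (SE 0.25, limma adjusted p = 0.33). miR-340-3p, from within Rnf130, had -2.67, -2.20 and -2.87 in WL, and -2.27 to -1.0 with a median of -1.61 in the others, where again UL 1 was the lowest. Its log2 fold change was -0.97 (SE 0.31, limma adjusted p = 0.337).

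Leaving out WL 3 brought 2 further microRNAs past the threshold. miR-694 had -3.90 and -4.75 in WL 1 and WL 2 but -1.43 in WL 3, and the 9 others lay between -1.90 and -0.52 with a median of -1.08. WL 3 thus fell among the control-diet pools, while the other 2 WL pools were well below all of them. The log2 fold change was -2.22 with all pools (SE 0.56, limma adjusted p = 0.279) and -3.19 without WL 3 (SE 0.36, limma adjusted p = 0.00141). miR-20b-5p, of the X-linked paralog of the oncogenic miR-17 cluster, had -2.43, -2.29 and -5.23 in WL. Its control-diet values were -9.73 in CD 1, -6.53 in UT 3 and -3.74, -2.85 and -3.23 in UL. WL 1 and WL 2 lay above every control-diet value, and WL 3 lay below all UL values but above the single CD and UT values. The log2 fold change was 3.19 (SE 0.74, limma adjusted p = 0.316), and 4.15 without WL 3 (SE 0.38, limma adjusted p = 0.00393), on 1 CD and 1 UT pool.

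**Figure D2:**
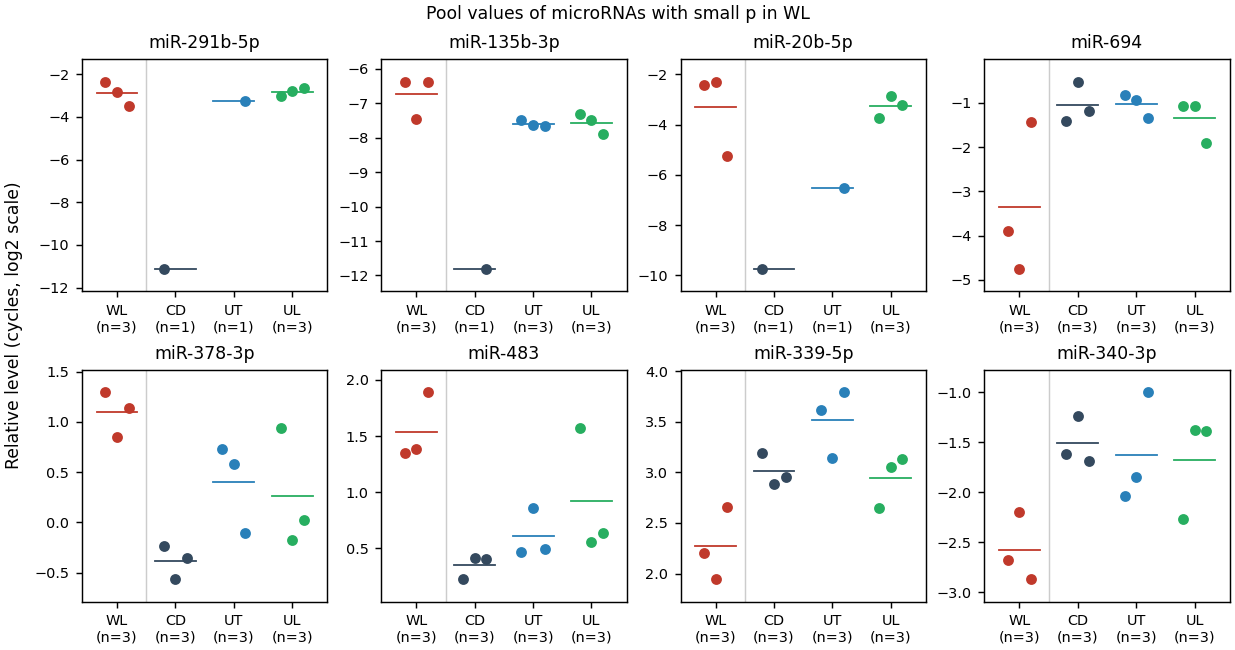
Relative level in cycles (log2 scale, y axes that differ between panels) of 8 microRNAs with small p in WL, by group (x axis, with the number of pools that had a value). Points are pools and lines are group means. In miR-291b-5p, miR-135b-3p and miR-20b-5p the single CD pool lies 4 cycles or more below every WL pool, and in miR-694 WL 3 lies among the control-diet pools.

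In 8 of the 24, the fold change was over 1.5 times as large with WL 3 as without it. miR-344-5p had -5.75, -6.33 and -1.54 in WL against -7.34 to -5.84 in the others, and its log2 fold change of 2.28 became 0.78 without WL 3. miR-32-5p, which shares its seed with the miR-92a of the miR-17 cluster, had -3.79, -3.83 and 0.30 in WL against a median of -4.63, and 2.12 became 0.75. For miR-219a-5p, given above, 2.42 became 1.10. In these 3 microRNAs WL 3 alone was 4 cycles or more above every control-diet pool.

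Smaller fold changes were carried the same way. miR-379, of the imprinted Dlk1-Dio3 cluster, had -0.73, -0.77 and 1.61 in WL against -1.90 to -0.60, and 1.32 became 0.54. miR-139-5p, from within Pde2a, had 3.31, 2.88 and 5.25 against 1.73 to 3.31, and 1.27 became 0.55. miR-497-5p had 0.39, -0.12 and 1.35 against -0.98 to 0.05, and 0.98 became 0.57. miR-148a-3p, which promotes adipogenesis, had 5.38, 6.00 and 7.16 against 4.31 to 6.15, and 1.18 became 0.69. In miR-541-3p, of the Dlk1-Dio3 cluster, WL had -5.25, -4.84 and -6.30 against -5.24 to -4.11, and -0.98 became -0.56. None of the 8 passed the adjusted threshold with or without WL 3. The part of pool WL 3 itself in these values, as tissue or as measurement, was not tested.

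Among the remaining members of the 24, miR-98-5p had -0.23, -0.25 and -0.23 in WL, and its log2 fold change of 0.80 (SE 0.27) came mostly from UT, at -2.16, -1.43 and -2.35, with 1.74 against UT, 0.31 against CD and 0.35 against UL. miR-494-5p (-0.78, SE 0.25) and miR-154-5p (-1.36, SE 0.46, and -0.62 without WL 1), both from the Dlk1-Dio3 cluster on chromosome 12 like miR-541-3p, had fold changes below 0, and miR-379 of the same cluster had one above 0. miR-133a-5p had -4.37, -4.50 and -4.25 in WL, against -4.33 to -3.08 (log2 fold change -0.75, SE 0.24), and the guide arm miR-133a-3p, a muscle microRNA that also restrains brown fat formation, had -0.11. miR-346-5p, from within Grid1, had -0.72 (SE 0.25). miR-365-1-5p had 1.15 (SE 0.41), whereas miR-365-2-5p, with the same seed, had -1.10 (SE 0.43, limma adjusted p = 0.42), and -0.46 without WL 3. The shared guide arm of both hairpins, miR-365-3p, had -0.24, and 0.16 without WL 3.

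**Figure D3:**
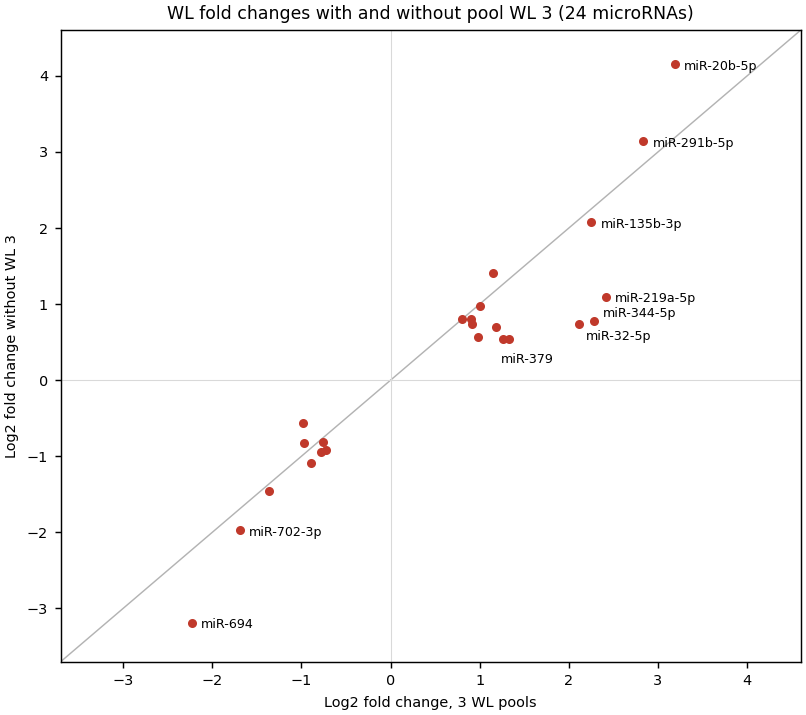
Log2 fold change of WL against the mean of CD, UT and UL for the 24 microRNAs with the smallest p, with all 3 WL pools (x axis) and without WL 3 (y axis). The line marks equal values. miR-219a-5p, miR-344-5p and miR-32-5p lie well below it, at 1.10, 0.78 and 0.75 without WL 3, and miR-694 and miR-20b-5p move away from 0.

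**Figure D4:**
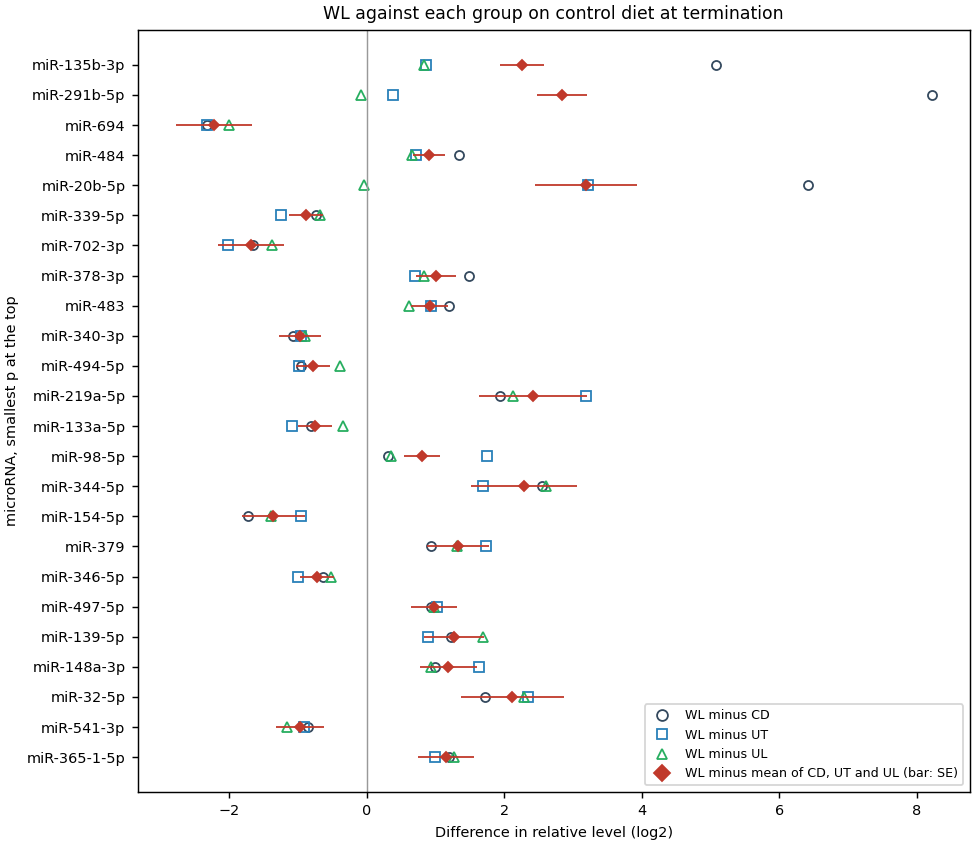
Difference in relative level (log2, x axis) between WL and CD, UT or UL (open symbols) and between WL and their mean (filled diamonds, bars are SE) for the same 24 microRNAs, smallest p at the top. In 22 of 24 the 3 open symbols lie on the same side of 0. For miR-135b-3p and miR-291b-5p the difference from CD, 5.07 and 8.22, lies far from the other 2.

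The opposite arms of these microRNAs were measured by separate assays. miR-135b-5p had -4.34, -2.51 and -6.45 in WL against -6.10 to -3.05 in the others, with a log2 fold change of -0.32 (SE 0.72) that was -1.28 without WL 2 and 0.69 without WL 3. miR-291b-3p had -8.62, -8.0 and -7.20 against -11.48 to -6.48, with 0.28 (SE 0.51), and -0.09 without WL 3. WL values of both partners overlapped the control-diet pools. miR-32-3p (-0.78), miR-344-3p (-0.86) and miR-379-3p (-0.10, and 0.54 without WL 1) had the opposite sign to their partners. miR-98-3p (0.11) and miR-346-3p (0.01) were near 0. miR-494, the partner of miR-494-5p, had 5.28, 5.31 and 5.05 in WL and 4.96, 5.15 and 4.83 in UL, but -0.31, -9.25 and -9.48 in CD and 2.07 in UT 3, the only UT value. The CD pools were 5 cycles or more below WL, and the UL pools were level with it. The log2 fold change was 4.98 (SE 1.76, limma adjusted p = 0.367), and without CD 1 it was 5.98 and passed the test (limma adjusted p = 4.194e-06).

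RefSeq mature sequences matched 366 of the microRNAs, which formed 42 groups with a shared seed and 2 or more members. The largest, with the let-7 seed GAGGUAG, had 9 of 9 members above 0 with a median of 0.28 (0.06 to 0.80), but 3 of 9 with RNU-43 as the scale and 4 of 9 after subtracting neighbouring assays in accession order. Its members include the abundant let-7b-5p (0.28) and let-7c-5p (0.23), and let-7e-5p (0.77, SE 0.35, limma adjusted p = 0.471, and 0.37 without WL 3). Of 6 members with the miR-17 seed AAAGUGC, 5 lay above 0 with a median of 0.14, and 2 of 6 did so with RNU-43. Single WL pools changed that count, to 3 of 6 without WL 1, 3 of 6 without WL 2 (median -0.04) and 6 of 6 without WL 3 (median 0.71). The abundant miR-93-5p of that group had 6.21, 6.78 and 5.67 in WL against 4.38 to 6.26 in the others, which put WL higher by 0.69 (SE 0.32, limma adjusted p = 0.471). Among these 15 microRNAs none passed the adjusted threshold with all pools. All 3 members with the miR-29 seed AGCACCA, known for repressing collagens, lay above 0 with a median of 0.35, but 1 of 3 did so with RNU-43, and 1 of 3 without WL 2 (median -0.07).

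Pathway lists were drawn from what is known of these microRNAs, with earlier results of these data known. Over all microRNAs, 43.5% lay above 0 and the median log2 fold change was -0.08. Of 18 measured microRNAs reported as raised in obese mouse fat, 10 lay above 0, with a median of 0.28 (-0.08 with RNU-43, 0.12 without WL 2), and 0 passed the adjusted threshold. The macrophage-linked miR-146a-5p, which damps NF-kappaB signalling, had 3.44, 4.00 and 7.15 in WL against 1.60 to 4.05, a difference carried by WL 3 (log2 fold change 1.51, SE 0.71, limma adjusted p = 0.471, and 0.36 without WL 3). miR-142-3p, a blood cell microRNA, had 4.56, 3.74 and 5.86 against 2.43 to 5.00 (log2 fold change 0.96, SE 0.50, and 0.39 without WL 3). The fibrosis-linked miR-21a-5p had 8.89, 8.64 and 7.44 against 7.40 to 8.51 (log2 fold change 0.51, SE 0.35, and 0.95 without WL 3). miR-342-3p ran the other way, with 0.36, 0.63 and -0.01 against 0.48 to 1.85 (log2 fold change -0.75, SE 0.28, limma adjusted p = 0.402). Of 26 reported as lowered in obese fat, 12 lay above 0 with a median of -0.01 and none was called.

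The other metabolic lists lay near the median of all microRNAs and held 0 called members. For the mTOR-targeting list, 10 of 24 lay above 0 with a median of -0.07. Its members include miR-99a-5p, which targets mTOR itself, at 0.27 (SE 0.27), and miR-199a-3p at -0.46 (SE 0.31, and -0.18 without WL 3). The pro-adipogenic list had 20 of 32 above 0 (median 0.07) and the anti-adipogenic list 10 of 24 (median -0.05). The thermogenic list had 14 of 26 (0.10), lipid and insulin signalling 18 of 30 (0.08), microRNAs hosted in metabolic genes 5 of 10 (0.04), and hypoxia and matrix 6 of 12 (-0.06). Without WL 3 the anti-adipogenic list had 17 of 24 above 0 (median 0.18) and the mTOR-targeting list 14 of 24 (0.08), and without WL 2 the hypoxia and matrix list had 2 of 12 (-0.19). The abundant adipogenic miR-26a-5p had 7.67, 8.50 and 6.89 in WL against 7.33 to 8.41, with a log2 fold change of -0.11 (SE 0.34), and 0.29 without WL 3. The insulin-regulating miR-103-3p had 4.24, 3.31 and 3.98 against 2.77 to 4.16, with 0.26 (SE 0.29), and 0.06 without WL 1.

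Of the genomic clusters, that of miR-290 to miR-295 had 2 of 10 above 0 with a median of -0.26, 1 of the 2 being the called miR-291b-5p. Its member miR-294-3p had -1.80, -2.52 and -1.90 in WL against -1.88 to -0.83 (log2 fold change -0.72, SE 0.27, limma adjusted p = 0.385). The pluripotency cluster of miR-302 and miR-367 had 6 of 9 above 0 (median 0.43, and -0.13 after subtracting neighbouring assays in accession order). The cluster of miR-322, miR-351 and miR-503, which brakes the cell cycle, had 7 of 11 above 0 (median 0.16), with 5 of 11 without WL 2 (-0.16) and 10 of 11 without WL 3 (0.41). In it, miR-503 had -6.07, -6.0 and -5.36 in WL against -10.74 to -5.01 (log2 fold change 1.96, SE 0.74, limma adjusted p = 0.398), and miR-322-5p had 3.44, 2.63 and 4.32 against 2.11 to 3.41 (0.91, SE 0.35, limma adjusted p = 0.42, and 0.48 without WL 3).

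**Figure D5:**
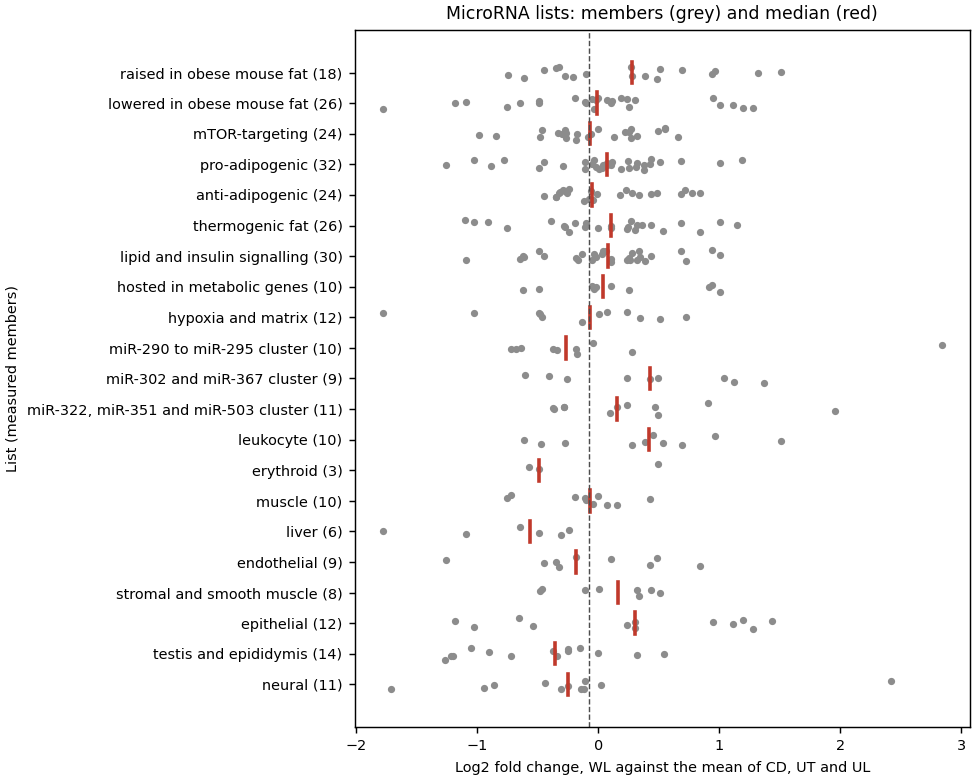
Log2 fold change of WL against the mean of CD, UT and UL (x axis) for the measured members (grey points) and the median (red bars) of each list, with the number of measured members in brackets. Vertical scatter within a list has no meaning, and the dashed line is the median of all 504 microRNAs, -0.08. Most medians lie within 0.5 of that line, and the points of every list spread to both sides of it except in the liver list, whose 6 members lie below it.

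MicroRNAs that mark other cell types were read beside these results, and none passed the adjusted threshold. Of 10 leukocyte microRNAs, 7 lay above 0 with a median of 0.42, and their level, as a mean over the list, ran from 1.16 to 1.85 in WL pools and from 0.74 to 1.5 in the others. A pool's list mean is taken over the members with a value in that pool. Of 12 epithelial microRNAs, 8 lay above 0 (median 0.30), with list means of -0.02 to 1.53 in WL and -1.21 to 1.56 in the others. The defining miR-200c-3p had 2.94, 5.35 and 5.03 in WL against 0.70 to 4.91, and miR-205-5p had 3.15, 5.29 and 4.85 against 0.24 to 5.20. In both, UT 1 and UT 3 were lowest. The liver list had 0 of 6 above 0 (median -0.57, list means -3.16 to -1.70 in WL and -2.88 to -1.62 in the others), with 1 of 6 after subtracting neighbouring assays in either order and 2 of 6 without WL 1. Its member miR-192-3p, with a mean level of -7.09, had no value in WL 3. The list mean of WL 3 leaves it out and is not like those of the other pools. Its defining miR-122-5p had -1.39, -1.68 and -2.09 in WL against -1.54 to 0.70 (log2 fold change -1.09, SE 0.44, limma adjusted p = 0.437). The testis and epididymis list had 2 of 14 above 0 (median -0.36, list means -1.91 to -1.36 in WL and -1.78 to -0.04 in the others).

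Erythroid microRNAs had 1 of 3 above 0 (median -0.49, and -0.20 without WL 3), muscle 3 of 10 (-0.07, but 0.07 without WL 1), endothelial 4 of 9 (-0.18, but 0.27 without WL 3), stromal and smooth muscle 5 of 8 (0.16), and neural 2 of 11 (-0.25). The endothelial miR-126a-3p had 8.24, 7.61 and 6.79 in WL against 6.01 to 8.49, and the stromal miR-145a-5p had 6.83, 7.52 and 7.11 against 6.28 to 7.85. WL values of both fell within the range of the control-diet pools. The part of cell composition in the fold changes was not tested.

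Precision varied with mean Ct, which can reflect assay efficiency as well as abundance. The 58 microRNAs with a mean Ct under 20 had a median log2 fold change of 0.17 and a median SE of 0.32. The 188 between 20 and 25 had -0.05 and 0.34, the 211 between 25 and 30 had -0.11 and 0.37, and the 47 later than 30 had -0.15 and 0.57. Fold changes beyond 1 in either direction numbered 3 of 58 in the earliest class and 11 of 47 in the latest, to which the called miR-135b-3p belongs with a mean Ct of 32.6.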

How the data were processed

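MicroRNAs were profiled by quantitative RT-PCR in 12 pools of epididymal fat RNA (miRNeasy kit, per the labels' protocols). The authors deposited threshold cycles before normalization, per the file headers, and these were tested. They also deposited ratios described as normalized values. Within a pool, these ratios and the Ct values differed on the log2 scale by a constant (24.74 to 25.46, varying by at most 0.01), so that a later cycle gives a larger ratio, which is the reverse of the header. Their scaling served as an alternative only, and the authors' fold changes were not used here. PCR platform, chemistry and threshold rule: not given in the sources used here.

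The table listed 507 assays. A repeated line was dropped, leaving 504 microRNAs and 2 reference RNAs. In 38 microRNAs 55 values were missing and were left missing. A filter for Ct under 35 in at least 3 pools removed 0. A single model of the 4 groups was fitted with limma 3.58.1 (lmFit, eBayes, R 4.3.3; two-sided, Benjamini-Hochberg over 504, threshold 0.05). A log2 fold change is WL minus the mean of the CD, UT and UL means, and prior degrees of freedom were 3.36. The script was tested on simulated data. Precision is limited by the number of pools.

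The members and the 21 lists (225 entries, 15 without a measured assay) were chosen with earlier results of these data known, so the lists are no independent evidence. Names were taken by a rule: all calls filled to 24 by smallest p, the up to 20 with the widest gap between WL and the rest, opposite arms, the 3 most abundant members of each list, and reference RNAs. miR-503, miR-342-3p and let-7g-5p were named after their values were seen. Both assays listed as miR-378 were told apart by their database identifiers. Deviations of same-numbered pools across groups had r over 0.1 in 7 of 18 pairs (median 0.05, against 0.002 for other numbers). The main model did not pair pools by number. With so few pools these values cannot exclude a shared batch, and the number as a block left 0 WL calls. Alternatives covered scaling, late cycles, missing values, the model and each pool left out.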

Additional observations from a re-analysis of the deposited data

Results flagged for a closer look

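Of 91 results checked for a pool that stood apart from the others on control diet at termination, 8 showed one. By chance the rule flags about 1 in 20 sets of values from a single population. Many of these results were chosen from the same data, and the pools come from 3 groups, so an excess over that was not tested. In miR-135b-3p, CD 3 at -11.8 was the lowest of 7 measured pools, with the next at -7.9. In miR-291b-5p, CD 1 at -11.12 was the lowest of 5, with the next at -3.28. Both are the microRNAs that passed the test in WL, and the low pool is the only CD pool with a value. In the other 6 all 9 pools had values. For miR-483, UL 1 was highest at 1.57, with the next at 0.86. For miR-344-3p, UT 3 was highest at 1.99 (next 0.39), for miR-322-5p CD 2 at 3.41 (next 2.76), and for miR-192-5p UL 3 at 2.26 (next 0.98). For miR-146a-5p, CD 3 was lowest at 1.6 (next 3.11), and for miR-92a-3p UT 2 at 3.2 (next 4.19).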

How the results depend on the processing

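In all, 32 other settings were run, 29 of them planned and 3 (neighbouring assays in accession order, WL 3 and UT 2 left out together, values past Ct 35 left out) chosen after seeing the data. Against 2 calls in WL, 0 were made with RNU-43 as the scale, with microRNAs measured in all 12 pools, with missing values at Ct 40, in a model of 2 groups, with the replicate block, with a robust trend, against UT and UL only, with accession neighbours subtracted and without values past Ct 35. Quantile normalization and a mean Ct under 30 gave 1, and pool quality weights 4. Leaving out pools gave 0 to 4: 0 without WL 1, UT 3, UL 1, UL 2 or UL 3, 1 without WL 2 or CD 3, and 4 without WL 3. Against 6 calls between CD, UT and UL, RNU-43 gave 11, neighbours in table order 2, complete microRNAs 0, Ct 40 for missing values 1, weights 14, an exchange of 2 assay pairs 3, accession neighbours 1, and no values past Ct 35 gave 0. Leaving out pools gave 1 to 17: 12 without WL 3, 17 without WL 3 and UT 2, 3 without UT 2, 2 without CD 1, CD 2, UT 1, UL 2 or UL 3, and 1 without UT 3. The 6 microRNAs with WL outside the 9 others became 15 against UT and UL, 17 against CD and UL, 22 against CD and UT, and 15 with accession neighbours subtracted, and 6 to 32 when pools were left out; fewer pools make separation easier by construction. Leaving out WL 1, WL 2, WL 3, CD 1, UT 2 and UL 1 gave 27, 24, 28, 11, 10 and 17. For the other changes the cause was not tested. The replicate block left 0 WL calls and 4 of 6 between the control-diet groups. Of 2831 values of named microRNAs, 2676 kept direction and side of the threshold, 122 changed sign uncalled, 26 lost and 7 gained a call, and 0 called values reversed. The 122 include a value of -0.78 counted for miR-494 among microRNAs measured in all 12 pools. That value is the fold change of miR-494-5p, and miR-494 itself could not be tested in that setting. miR-135b-3p and miR-291b-5p were each called in 15 of the 28 settings that could test them. Those that could not include microRNAs measured in all 12 pools, no values past Ct 35, and the lone CD pool with a value left out. Of 672 list medians, 659 moved by less than their members' median SE. RNU-43 moved the median of all microRNAs to -0.43, against -0.08. The median SE was 0.36 with 3 pools a group, and a difference of 2.42 (miR-219a-5p) was not called.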

Other observations

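Several microRNAs had wide differences between the WL pools. The examples were picked after their values were seen, among those with WL 3 far from WL 1 and WL 2. miR-331-3p had -2.65, -2.60 and 5.33 in WL 1, WL 2 and WL 3, and the 11 pools other than WL 3 lay between -3.52 and -2.36. miR-721, which shares its seed with miR-130a-3p, had -0.18, 0.18 and 6.02, where the other 11 pools lay between -1.03 and 0.21. miR-329-3p, of the Dlk1-Dio3 cluster, had -3.30, -2.78 and 2.58, against -4.07 to -2.58, and miR-216a-5p, an exocrine pancreas microRNA, had -1.11, -0.54 and 4.11, against -1.35 to -0.18. In the opposite direction, miR-185-5p had 1.94, 1.73 and -2.76, against -1.95 to 1.94, and miR-101b-3p had 1.35, 1.25 and -2.26, against -1.20 to 1.35. In each of these 6, WL 1 and WL 2 lay within the range of the control-diet pools or within 1 cycle of it, and WL 3 stood outside all 11 other pools. miR-703 differed between WL 2, at -6.83, and both WL 1 and WL 3, at 5.60 and 4.52.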
